A study of Mus musculus with 10 samples.

Results

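CpG islands of the mouse brain were examined here for a difference between their borders and their interiors. The unit is a cluster of neighbouring array probes, formed wherever probe starts on mouse build mm9 lay at most 500 bp apart. Of 15538 clusters on the array, 5209 lay on an autosome and held 6 to 10 probes, and these are called medium islands. In each of them the first and the last probe formed the edge and all probes between them formed the centre, which gave 10418 edge probes and 27744 inner probes. The choice used probe positions alone and no measured value. Clusters of 6, 7, 8, 9 and 10 probes numbered 1845, 1337, 963, 611 and 453. The median medium island spanned 867 bp. Neighbouring starts lay a median of 116 bp apart at the edge and 117 bp apart within the centre. No annotation of island borders was used, so whether an edge probe lay in the island or in its flank was not determined.

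The DNA came from the left hemibrain of male C57BL/6j mice, an inbred strain, that were fed 1 of 3 diets of equal caloric content for 24 weeks from an age of 3 weeks. What set the diets apart was their n-3 to n-6 polyunsaturated fatty acid ratio. ERD, enriched in n-3, had a ratio of 7:1 and was measured on 4 arrays. BLD, the balanced diet, had 1:1 and 3 arrays, and STD, the standard lab diet and the control, had 1:6 and 3 arrays. Each array compared DNA immunoprecipitated for 5-methylcytosine (Cy5) with input DNA of the same sample (Cy3). A whole hemibrain mixes neurons, glia and vessel cells, so a value is an average over cell types.

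CpG islands are stretches in which CpG dinucleotides are frequent, many of them at promoters, and most are kept free of methylation in healthy tissue. The DNA that flanks an island, often called its shore, has fewer CpGs, and its methylation varies more between tissues than that of the island itself. Methylated DNA immunoprecipitation recovers a fragment according to both its methylation and the number of CpGs it holds. The measured value is the log2 ratio of Cy5 over Cy3, set to 0 at the median of each array, so that a level above 0 means more immunoprecipitated DNA relative to input than at the median probe of that array.

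The edges of medium islands had higher ratios than their centres on every array. The median edge level on the log2 scale was 0.12, 0.095, 0.10 and 0.10 on the ERD arrays, 0.15, 0.26 and 0.067 on the BLD arrays, and -0.0011, 0.065 and 0.036 on the STD arrays. The median centre level was -0.17, -0.18, -0.18 and -0.17 on the ERD arrays, -0.20, -0.16 and -0.096 on the BLD arrays, and -0.06, -0.14 and -0.08 on the STD arrays. The centre was thus under the median probe of its array 10 times of 10 and the edge above it 9 times of 10. Taken within each island, edge minus centre was 0.27, 0.25, 0.26 and 0.24 in ERD, 0.31, 0.39 and 0.15 in BLD, and 0.062, 0.18 and 0.11 in STD.

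Averaged over the 10 arrays the difference was 0.22 ± 0.099 on the log2 scale (SD, n = 10) and above 0 on 10 of 10 arrays. An exact two-sided sign-flip permutation test over arrays gave p = 0.00195, the smallest value that 10 arrays allow. All arrays carry the same probes and the same dye order, with no dye swap, so a probe or dye effect common to them is part of this difference and not of its error. With normexp background correction of the spot medians in place of the deposited processed signals, the difference was 0.044 (p = 0.258, exact permutation test) and above 0 on 7 arrays. The call thus depends on which signals are used. That setting also added an offset of 50 and had no scaling between dyes other than the centring of each array. Which of these changes moved the difference was not tested.

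**Figure D1:**
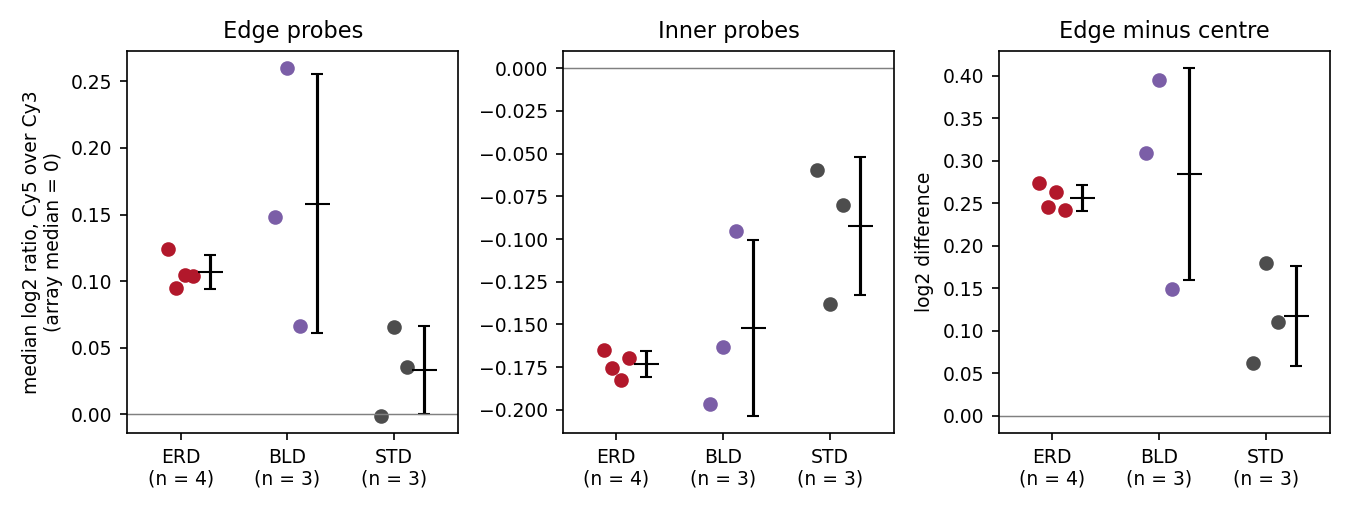
Median log2 ratio of Cy5 over Cy3 at the edge probes and at the inner probes of 5209 medium islands, and the median of edge minus centre within islands, with 1 point per array and bars for the mean and SD of each diet. Edge minus centre is above 0 on all 10 arrays, from 0.062 on an STD array to 0.39 on a BLD array.

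Most single islands followed this direction on each array. The edge was above the centre in 72.9% ± 1.29 of medium islands in ERD (SD, n = 4), in 77.0% ± 4.87 in BLD and in 63.9% ± 6.31 in STD (SD, n = 3 each). Over the mean of the 10 arrays, both edge probes lay above the centre in 3104 islands (59.6%), 1 of the 2 did in 1733 (33.3%), and neither did in 372 (7.14%). The mean edge minus centre of single islands ran from -0.20 at the 5th percentile, through a median of 0.23, to 0.67 at the 95th percentile.

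The profile along an island was highest at its outermost probes and lower within. In the 963 islands of 8 probes, the median log2 ratio averaged 0.12 ± 0.083 at the first probe and -0.063 ± 0.039 at the second (SD, n = 10). It was -0.13 ± 0.06 at the fifth probe, the lowest of the 8, then -0.073 ± 0.041 at the seventh and 0.11 ± 0.066 at the eighth. The step from the next-to-edge probe to the edge was 0.20 ± 0.094 over all medium islands, and the step from the deeper probes to the next-to-edge probe was 0.035 ± 0.016 (SD, n = 10). Both steps were above 0 on all 10 arrays, so the outermost probe carried most of the difference and the probe beside it a small share. The first probe, at the lower coordinate, minus the last was -0.0036 ± 0.012 and did not pass (SD, n = 10; adjusted p = 0.402 over 4 comparisons paired within the array, exact sign-flip permutation test). It was -0.019 and passed with only probes well above background (adjusted p = 0.03125, exact permutation test), and 0.000758 with clusters formed at 300 bp.

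**Figure D2:**
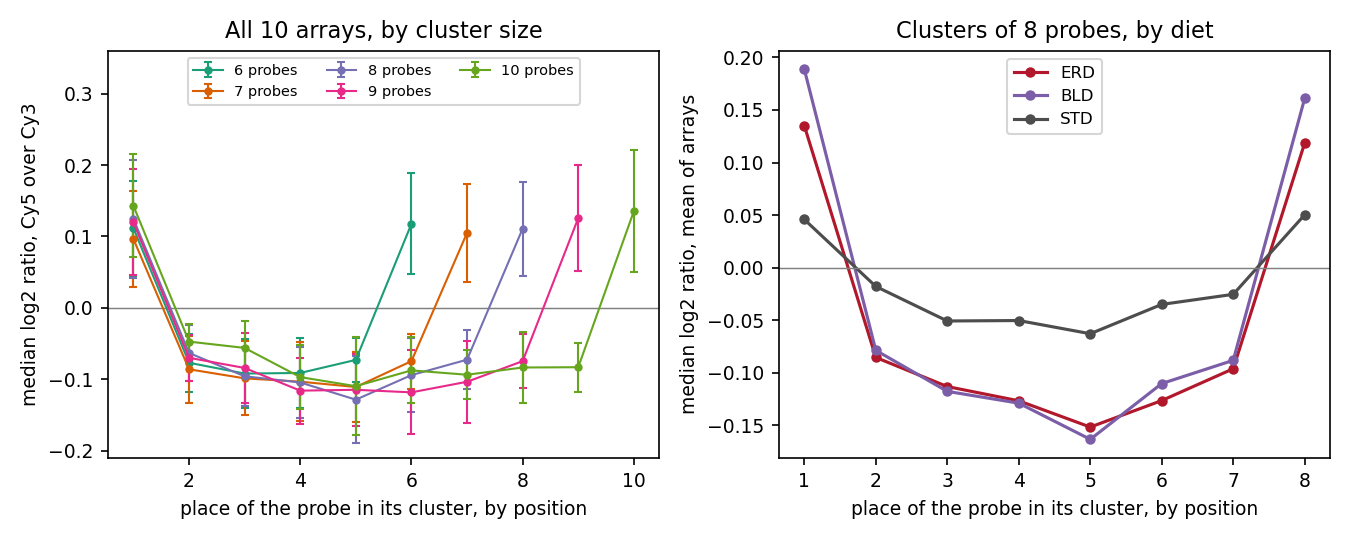
Median log2 ratio of Cy5 over Cy3 by place of the probe in its island, on the left as the mean and SD over 10 arrays for islands of 6 to 10 probes, on the right as the mean of each diet's arrays for islands of 8 probes. The 2 outermost probes lie above 0 in every size class and the inner probes below 0, and in islands of 8 probes the first probe averages 0.14 in ERD, 0.19 in BLD and 0.046 in STD.

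Islands with more probes had somewhat larger means, which were not tested against each other. Edge minus centre averaged 0.21, 0.22, 0.22, 0.24 and 0.25 on the log2 scale in islands of 6, 7, 8, 9 and 10 probes. Just outside the size limits it was 0.19 in autosomal clusters of 5 probes and 0.23 in those of 11. The difference also went with the level of the island. In the 1737 islands with the lowest mean ratio it was 0.31 ± 0.11, with the edge at -0.04 and the centre at -0.34. In the 1736 islands with the highest mean ratio it was 0.14 ± 0.092, with the edge at 0.24 and the centre at 0.068 (SD, n = 10 each). The level of an island is the mean of the same probes, so no test was made of this trend. On the 19 autosomes the mean over arrays ran from 0.19 on chromosome 8 (274 islands) to 0.27 on chromosome 12 (222 islands). The 143 clusters of the same size on chromosome X, which are no medium islands by the rule, averaged 0.15.

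The edges stood out less in small clusters and less where another cluster was close by. Edge minus centre was 0.086 ± 0.03 larger in medium islands than in the 7047 autosomal clusters of 3 to 5 probes, and larger on 10 of 10 arrays (adjusted p = 0.00391, exact sign-flip permutation test). In input DNA the edge was -0.90 from the centre in medium islands and -0.65 in small clusters, and 50.1% and 60.03% of their edge probes had 45 nucleotides; the part of these features in the difference was not tested. Against the 1188 autosomal clusters of over 10 probes the difference was 0.013 ± 0.026, larger on 6 of 10 arrays, and did not pass (adjusted p = 0.19). With probes of 45 nucleotides alone, it was -0.023 (adjusted p = 0.0104), so neither direction is established between medium and long islands.

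Of the edges of medium islands, 9938 were far from the next probe outside (over 2000 bp) and 480 were near one. Far edges were 0.24 ± 0.098 above their centre and near edges 0.10 ± 0.04 above it, a difference of 0.14 ± 0.07 that was above 0 on 10 of 10 arrays (adjusted p = 0.00391, exact sign-flip permutation test). Under normexp correction the values for medium minus small and for far minus near were 0.016 (adjusted p = 0.457) and 0.040 (adjusted p = 0.316), and neither passed. Far and near edges also differed in brightness: in input DNA they were -0.87 and -0.29 from their centres on the log2 scale, and 49.5% of far and 61.9% of near edge probes had 45 nucleotides. Their part in the difference was not tested either.

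**Figure D3:**
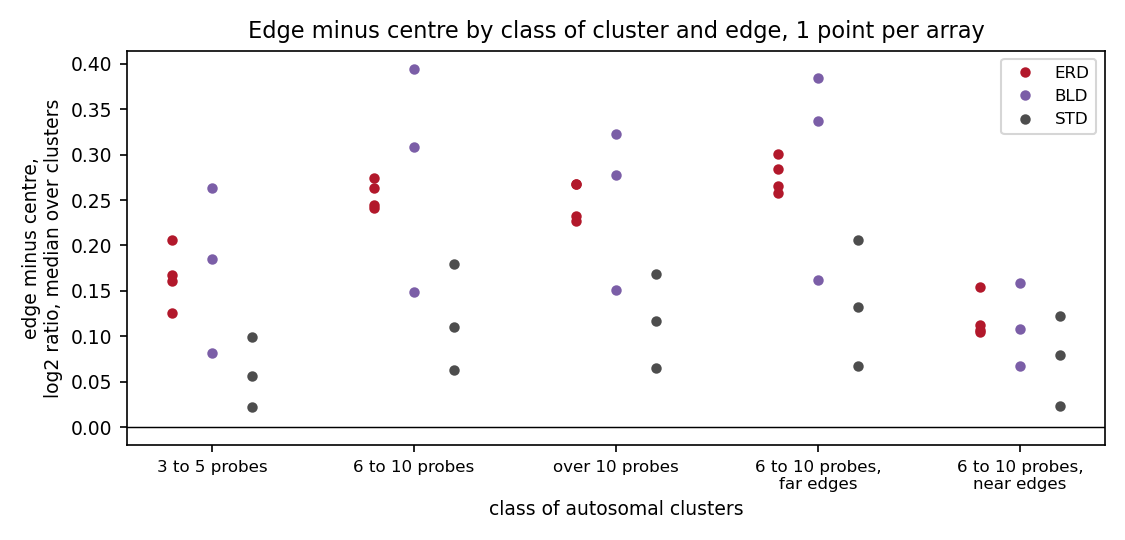
Median edge minus centre on the log2 scale for autosomal clusters of 3 to 5, 6 to 10 and over 10 probes, and for far and near edges of the clusters of 6 to 10 probes, with 1 point per array. Far edges average 0.24 and near edges 0.10, and every array lies above 0 in each class.

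The edge probes were dimmer than the inner probes in both channels. In immunoprecipitated DNA the log2 processed intensity of the edge minus that of the centre was -0.80, -0.53, -0.81 and -0.87 in ERD, -0.72, -0.60 and -0.57 in BLD, and -0.68, -0.68 and -0.55 in STD. In input DNA it was -1.06, -0.74, -1.08 and -1.12 in ERD, -0.995, -1.005 and -0.71 in BLD, and -0.75, -0.88 and -0.66 in STD. All 10 arrays were below 0 in both channels, with means of -0.68 ± 0.12 in Cy5 and -0.90 ± 0.17 in Cy3 (SD, n = 10; adjusted p = 0.00195 for each, exact sign-flip permutation test). On average both signals were lower at the edge and Cy5 was the less reduced of the 2, which is what the higher ratio records. Input DNA carries no antibody selection, and 77.8% of medium islands had the dimmer edge in it. The probes differed as well: 50.1% of edge probes and 84.4% of inner probes had 45 nucleotides, with means of 48.7 and 45.7. Spots were well above background in both channels on all 10 arrays for 42.6% of edge probes and 65.3% of inner probes.

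**Figure D4:**
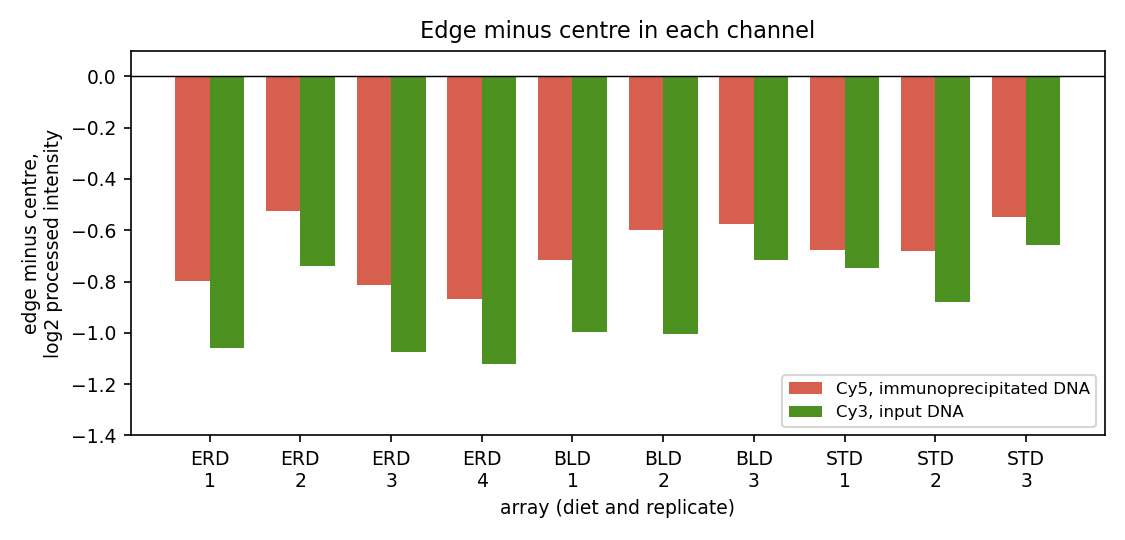
Median of edge minus centre in log2 processed intensity for immunoprecipitated DNA (Cy5) and input DNA (Cy3) on each array, labelled by diet and replicate. Every bar is below 0 and on each array the Cy3 bar is the longer one, with means of -0.68 in Cy5 and -0.90 in Cy3.

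Sorted by their input signal, islands with a dim edge and islands with a bright edge both had the higher ratio at the edge. In the 1046 islands whose edge was at least 2 log2 units dimmer than the centre in Cy3, edge minus centre of the ratio averaged 0.30 ± 0.22 (SD, n = 10) and was above 0 on 9 of 10 arrays. In the 597 islands whose edge was over 0.5 log2 units brighter in Cy3 it averaged 0.17 ± 0.072 and was above 0 on all 10. In ERD it averaged 0.28 in the class with the dimmest edges and 0.24 in that with the brightest, in BLD 0.51 and 0.12, and in STD 0.12 and 0.12, so the BLD values spanned the widest range over these classes. The sorting uses the denominator of the ratio, so these are descriptions with no test.

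**Figure D5:**
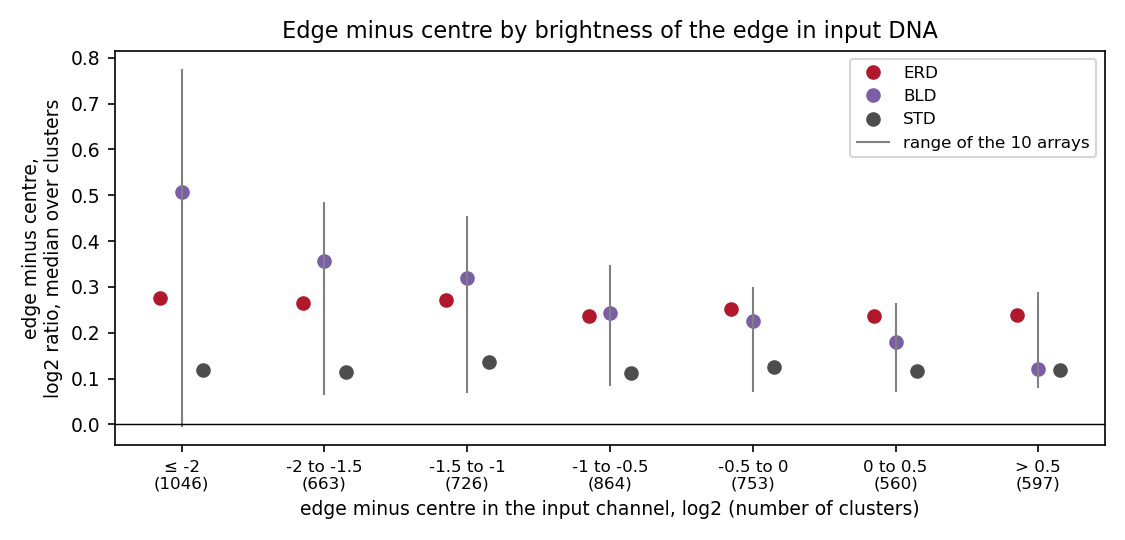
Median edge minus centre of the log2 ratio in medium islands sorted by edge minus centre in the input channel, with points for the mean of each diet and a line for the range of the 10 arrays. The mean over arrays is 0.30 where the edge is dimmest and 0.17 where it is brightest, and the BLD points fall from 0.51 to 0.12.

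The difference was smaller among probes of 1 length and among bright probes, and kept its direction. With only probes of 45 nucleotides, edge minus centre was 0.19 ± 0.018 in ERD, 0.18 ± 0.056 in BLD and 0.11 ± 0.038 in STD, and 0.16 over all arrays. With only probes well above background on all arrays it was 0.20 ± 0.013, 0.20 ± 0.077 and 0.10 ± 0.053 in the same diets, and 0.17 over all arrays. Values remained for 3850 of the 5209 medium islands with probes of 45 nucleotides and for 3451 with probes well above background. The islands thus changed along with the probes. After a correction of each array for probe length edge minus centre was 0.15 over all arrays. Each of these was above 0 on 10 of 10 arrays, with p = 0.00195 in the exact sign-flip permutation test.

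Between diets, edge minus centre was larger in ERD and BLD than in STD by their means, but no pair of diets passed the test. It averaged 0.26 ± 0.015 in ERD (SD, n = 4), 0.28 ± 0.12 in BLD and 0.12 ± 0.059 in STD (SD, n = 3 each). ERD minus STD was 0.14 and the 2 sets of arrays did not overlap, with an exact two-sided permutation p of 0.0286, the smallest that 4 against 3 arrays allow, and 0.0857 after adjustment over the 3 pairs of diets. The doubled smaller tail of the same permutations gave 0.0571, or 0.171 after adjustment, and the statistic was settled after both had been seen. BLD minus STD was 0.17 (exact permutation p = 0.2, adjusted p = 0.3), where 3 against 3 arrays cannot go below 0.1. ERD minus BLD was -0.028 (exact permutation p = 0.629, adjusted p = 0.629) and its direction turned without BLD replicate 2, at 0.027, with loess, at 0.031, and with 3 probe settings (0.000699 with the filter on background, 0.018 with the length correction, 0.013 with 45 nucleotide probes). Under normexp correction ERD minus STD was -0.11 (exact permutation p = 0.314) and BLD minus STD was -0.088 (exact permutation p = 0.4), so both turned round. The edge level itself was 0.11 ± 0.013 in ERD, 0.16 ± 0.097 in BLD and 0.033 ± 0.033 in STD. The centre level was -0.17 ± 0.0075, -0.15 ± 0.052 and -0.092 ± 0.04 in these diets. The ERD arrays did not overlap with the STD arrays in either level, with the edge 0.073 higher and the centre 0.081 lower, and neither passed over the 12 comparisons of levels and channels (adjusted p = 0.171 for each, exact permutation test).

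Slide and spread of the array moved with the diets. Each slide held 2 arrays, and BLD replicate 3 and STD replicate 1 were the sole pair of diets on one slide, where BLD was 0.087 above STD. No slide held ERD with another diet, so slide and diet cannot be told apart for ERD. The interquartile range of all log2 ratios on an array, a measure of its spread, was 0.71 ± 0.077 in ERD (SD, n = 4), 0.61 ± 0.20 in BLD and 0.47 ± 0.082 in STD (SD, n = 3 each). Across the 10 arrays it went with edge minus centre (Pearson r = 0.788, permutation p = 0.00808; Spearman rho = 0.855, permutation p = 0.0031). The range covers the probes of medium islands too and scales every difference on an array. The 2 measures are thus not independent, and the p-values of r and rho test no link beyond that. Without BLD replicate 3 and STD replicate 3, the arrays farthest from the median range, r was 0.751 (exact permutation p = 0.0299) and rho 0.786 (exact permutation p = 0.0279). The diet means of both quantities differ, so r was also taken over values minus their diet mean. It was then 0.754 (exact permutation within diets, p = 0.167) and rho 0.782 (p = 0.0544 by the same exact permutation), and neither passed. A single slide holds too few arrays for a value within it. Divided by this range, edge minus centre was 0.36 ± 0.029 in ERD, 0.45 ± 0.092 in BLD and 0.25 ± 0.11 in STD. With all arrays scaled to one spread, ERD minus STD was 0.068 (exact permutation p = 0.0571, adjusted p = 0.0857) and BLD minus STD 0.12 (exact permutation p = 0.1, adjusted p = 0.1). The scaled means were 0.22 ± 0.018 in ERD, 0.28 ± 0.056 in BLD and 0.15 ± 0.069 in STD, with BLD above ERD. Scaled values of single arrays ran from 0.203 to 0.240 in ERD and from 0.237 to 0.340 in BLD, and ERD minus BLD did not pass either. With the correction for probe length ERD minus STD was 0.065 and BLD minus STD 0.048, and with probes of 45 nucleotides they were 0.073 and 0.061.

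Island by island, the edge differed from the centre in a large minority. In limma with Benjamini-Hochberg adjustment over all 13835 clusters of 3 or more probes, 2294 of the 5209 medium islands (44.0%) passed with the edge above the centre, against 37.2% of all clusters. A further 161 medium islands (3.09%) passed with the edge below it, against 5.42% of all clusters. The median of edge minus centre in this fit was 0.22 in medium islands and 0.17 over all clusters. The edge was above the centre on all 10 arrays in 909 medium islands (17.5%, against 13.9% of clusters with a value on all arrays) and below it on all 10 in 38 (0.73%, against 1.26%). With normexp correction 0 medium islands passed in limma. Over medium islands, edge minus centre correlated between arrays with an average r of 0.46 for pairs of ERD arrays, 0.46 for pairs of BLD arrays and 0.31 for pairs of STD arrays. For single pairs of arrays r ran from 0.064 to 0.64. All pairs share the same probes, and islands are not independent replicates.

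Named islands follow a rule on p and size among the 5134 medium islands with at least 50% of spots well above background in every diet, and none is given a gene. Among those with the edge above on all 10 arrays, chr11:98219478-98220110 (6 probes) had the lowest p. Its edge minus centre was 1.32, 1.03, 1.48 and 1.48 in ERD, 0.76, 0.79 and 0.45 in BLD, and 0.66, 0.49 and 0.53 in STD. The fitted mean, which weights the 3 diets equally, was 0.85 ± 0.083 (SE; limma adjusted p = 2.56e-05), with the ERD arrays above all others. Its edge was -3.19 from the centre in input DNA, the dimmest edge of the 8 islands named for a low p and a higher edge.

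The island chr9:91278786-91279384 (6 probes) had the higher ratio with a brighter edge. There edge minus centre was 0.92, 0.87, 0.88 and 1.02 in ERD, 0.76, 0.76 and 0.57 in BLD, and 0.73, 0.69 and 0.43 in STD, with a fitted mean of 0.75 ± 0.077 (SE; limma adjusted p = 3.34e-05). Its edge was 0.76 brighter than the centre in Cy3 and 1.52 brighter in Cy5. With normexp correction this island gave -0.097 and did not pass (limma adjusted p = 0.584). The widest fitted mean of the islands under the rule was 1.13 ± 0.13 (SE; limma adjusted p = 5.76e-05) at chr6:88468396-88469210 (7 probes), with the edge at 0.43 and the centre at -0.69. Its arrays ran from 0.55 to 2.01, both in BLD.

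The islands with a lower edge were fewer and their differences smaller. The lowest p among them was at chr2:180436215-180436811 (7 probes), where edge minus centre was -0.74, -0.83, -0.84 and -0.68 in ERD, -0.48, -0.56 and -0.48 in BLD, and -0.22, -0.75 and -0.81 in STD. The fitted mean was -0.62 ± 0.083 (SE; limma adjusted p = 0.000109). As plain means of the arrays the edge was at -0.73 and the centre at -0.09, and the edge was 0.75 brighter than the centre in Cy3. At chr17:34048470-34049017 (6 probes) the centre was high: it averaged 0.64 ± 0.36 and the edge 0.054 ± 0.38 (SD, n = 10), with a fitted mean difference of -0.58 (limma adjusted p = 0.000348). Centre and edge averaged 0.87 and 0.22 in ERD, 0.68 and 0.14 in BLD, and 0.30 and -0.26 in STD, so in STD the edge was low as well. The largest fitted mean with the edge below was -0.72 ± 0.10 (SE; limma adjusted p = 0.000186) at chr17:23813505-23814391 (9 probes). Over the 8 islands of this kind with the lowest p, 5 had a dimmer edge in Cy3, against 7 of the 8 with a higher edge. Among all medium islands the share was 77.8%. Cy3 is the denominator of the ratio these islands were picked on, so the counts were not tested.

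No single island differed between diets at the threshold. In limma 0 of 5209 medium islands and 0.0% of all clusters passed in each pair of diets, with lowest adjusted p of 0.123 for ERD minus STD, 0.266 for BLD minus STD and 0.294 for ERD minus BLD. At an unadjusted p under 0.05, 601 medium islands (11.5%, against 10.6% of all clusters) were higher and 102 (1.96%, against 2.99%) lower in ERD than in STD. BLD was above STD in 626 (12.02%, against 10.7%) and below it in 61 (1.17%, against 1.99%). ERD was above BLD in 181 (3.47%, against 4.52%) and below it in 274 (5.26%, against 6.28%). The arrays of ERD and STD did not overlap in 670 medium islands with ERD higher (12.9%, against 11.1% of all clusters) and in 112 with ERD lower (2.15%, against 2.94%). For BLD and STD they did not overlap in 737 with BLD higher (14.1%, against 12.4%) and 176 with BLD lower (3.38%, against 3.94%). For ERD and BLD there were 225 with ERD higher (4.32%, against 4.49%) and 225 with ERD lower (4.32%, against 4.98%). The median over medium islands was 0.14 for ERD minus STD and 0.17 for BLD minus STD, against 0.12 and 0.14 over all clusters. Without BLD replicate 3, whose edge minus centre was the lowest of its diet, 171 of the 5209 medium islands passed for BLD minus STD. Of these 165 were higher, and over all 13835 clusters 438 passed. For ERD minus BLD 11 medium islands passed, all lower, against 42 over all clusters.

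The island nearest to the threshold between diets was chr4:32743972-32744584 (6 probes). Its edge minus centre was 0.90, 0.32, 0.83 and 0.97 in ERD and -0.68, -0.38 and -0.67 in STD. ERD minus STD was 1.33 ± 0.24 there (SE; limma adjusted p = 0.123). BLD lay between them at 0.45, 0.37 and -0.27. With array weights it was the sole medium island of 5209 to pass, at 1.35 (limma adjusted p = 0.0347). Over all 13835 clusters 6 passed in that fit. For BLD against STD the lowest p was at chr5:74931407-74932178 (7 probes), with 0.75, 1.06 and 0.55 in BLD and -0.30, -0.33 and -0.35 in STD. BLD minus STD was 1.11 ± 0.21 there (SE; limma adjusted p = 0.266). Under normexp correction that difference was -0.10. For ERD against BLD, chr2:93997675-93998484 (6 probes) had -0.35, -0.33, -0.54 and -0.67 in ERD, 0.60, 0.34 and 0.12 in BLD, and 0.42, 0.27 and 0.38 in STD. ERD stood apart from both other diets there, by -0.83 from each (limma adjusted p = 0.294 against BLD and 0.156 against STD), and neither difference passed.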

How the data were processed

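Agilent 2-colour CpG island arrays of 10 hemibrain DNA samples were used, with immunoprecipitated DNA in Cy5 and input DNA in Cy3, per the labels. The deposited processed intensity of each channel had been background-subtracted and scaled between dyes by Agilent Feature Extraction 10.7.3.1, per the file headers, while the submitters' processing notes list 9.0. The deposited value table holds the log10 ratio of the scanner files, with a largest difference of 0.00498, so its scale, centring and direction are theirs. Probe positions are on mm9, per the file headers. Of 88737 non-control probes, 88411 had a position. Diets come from the diet label. All sample titles end in the word CONTROL whichever the diet, while a group code in each title splits the samples as the diet label does. Nothing in the labels says that each sample is 1 animal, and the spread between samples may be technical.

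The log2 ratio of the deposited intensity was computed per probe, outlier-flagged spots were dropped, saturated spots kept, and each array was centred on its median, with no loess or quantile step. Probe starts at most 500 bp apart formed clusters. Per array, edge minus centre was the median over islands of the mean of the edge probes minus the mean of the inner probes. Array values were tested with exact two-sided permutation tests (scipy 1.17.1), by sign flips over 10 arrays or by regrouping 2 diets, with the size of the mean or difference as the statistic. Correlations over 10 arrays used 100000 resamples. All clusters of 3 or more probes entered 1 fit of lmFit and eBayes with no covariate (limma 3.58.1, R 4.3.3), Benjamini-Hochberg adjustment was over all of them, and 0.05 was the threshold. The limma fit for ERD minus STD was tested on simulated data with known shifts in ERD. Their noise was independent and held no slide effect. Depth does not apply to arrays, whose number limits the precision.

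Named islands had at least 50% of spots well above background in both channels in every diet. The rule took the 8 with the lowest p in each direction with 1 sign on all 10 arrays, the 5 widest in each direction, and per pair of diets the 5 with the lowest p in each direction whose direction held without each array in turn. The report prints a selection of these. The islands and rules were chosen with earlier results of these data known. Alternatives were normexp with an offset of 50, loess, scaling to one spread, the value table, filters on spots, 300 and 1000 bp distances, other centres, a probe length correction, slide as a random block, array weights and leaving out each array. Normexp was run on the median spot signal, since the files used here hold no mean signal. Comparisons with 45 nucleotide probes, the doubled tail, the correlation within diets, the next-to-edge steps and the channel alternatives were added after the data were seen. No mm9 genome or annotation was used here, so no gene is named and no sequence printed.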

Additional observations from a re-analysis of the deposited data

Results flagged for a closer look

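In 62 groups of 4 ERD values, 4 held 1 array far from the other 3, and chance flags about 1 in 20 groups. For the first minus the last edge probe it was ERD replicate 1 at -0.030. For edge minus centre in Cy3 it was ERD replicate 2 at -0.74, and for next-to-edge minus deeper probes ERD replicate 1 at 0.014. At chr8:108659711-108661080 it was ERD replicate 4, with an edge minus centre of 0.81.

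In 15 comparisons of named islands all arrays of one diet had the edge above the centre and all arrays of the other had it below. These islands were picked for low p-values, none passed in limma, and the opposite signs themselves were not tested. The share of all medium islands with opposite signs is not given here. Arrays of ERD and STD without overlap, a wider criterion, were found in 670 medium islands with ERD higher (12.9%, against 11.1% of all clusters). With ERD lower there were 112 (2.15%, against 2.94%). BLD and STD did not overlap in 737 with BLD higher (14.1%, against 12.4%) and in 176 with BLD lower (3.38%, against 3.94%). ERD and BLD did not overlap in 225 with ERD higher (4.32%, against 4.49%) and in 225 with ERD lower (4.32%, against 4.98%). For ERD minus STD the differences were 1.33 at chr4:32743972-32744584, 1.44 at chr4:154998541-154999239, 1.01 at chr11:60691840-60692744, 0.94 at chr3:130808925-130809786, -1.16 at chr10:100051560-100052082, -0.83 at chr2:93997675-93998484 and -1.23 at chr19:4839122-4839764. For BLD minus STD they were 1.11 at chr5:74931407-74932178, 1.15 at chr17:56263251-56264412, 1.53 at chr11:96147947-96148822, -0.87 at chr6:113432446-113433461 and -0.58 at chr9:77392175-77393192. For ERD minus BLD they were -1.37 at chr6:83652101-83652961, -0.83 at chr2:93997675-93998484 and -0.97 at chr15:99287579-99288642.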

How the results depend on the processing

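No paired analysis was possible because the replicate numbers follow the order of the samples and tie no sample of one diet to one of another. The average edge minus centre kept its direction and its call under every alternative run except normexp, which gave 0.044 (exact permutation p = 0.258). Normexp also gave -0.11 for ERD minus STD, -0.088 for BLD minus STD, 0.016 for medium minus small and 0.040 for far minus near, and 0 islands passed with it against 2455 in the report. The cause was not tested. ERD minus BLD turned to 0.027 without BLD replicate 2, 0.031 with loess, 0.000699 with probes well above background on all arrays, 0.018 with the length correction and 0.013 with probes of 45 nucleotides. First minus last edge probe was -0.019 with that background filter (adjusted p = 0.03125, exact permutation test) and 0.000758 with 300 bp distances. Medium minus long was -0.00724 with the filter, -0.00241 with the length correction and -0.023 with 45 nucleotide probes. With those probes 1568 of the 3850 medium islands with values passed, against 4030 of 10547 clusters of all sizes. With the filter 1596 of 3451 passed, against 3850 of 8937.

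Without 1 array in turn, edge minus centre ran from 0.20 to 0.24, ERD minus STD from 0.11 to 0.17, BLD minus STD from 0.11 to 0.23, ERD minus BLD from -0.096 to 0.027, first minus last from -0.0058 to -0.0007, medium minus long from 0.0066 to 0.017, medium minus small from 0.081 to 0.091 and far minus near from 0.12 to 0.15. Cy5 ran from -0.70 to -0.66, Cy3 from -0.93 to -0.88, and r with the spread from 0.74 to 0.84. Over values minus their diet mean r was 0.754 (exact permutation p = 0.167). Medium islands passing ran from 1980 to 2500 for edge against centre, against 4700 to 5943 of all 13835 clusters. They stayed at 0 for ERD minus STD. For BLD minus STD they ran from 0 to 171, against 0 to 438 of all clusters. For ERD minus BLD they ran from 0 to 11, against 0 to 42. Array weights gave 1 for ERD minus STD, against 6 of all clusters. With slide as a random block (correlation 0.12) 0 passed in each pair of diets.

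Of the named islands, 13 values turned round, all under normexp. Over the 10 arrays these were 0.021 at chr7:97128573-97129767, 0.065 at chr4:59015740-59016506, -0.00247 at chr4:138936223-138936981, -0.097 at chr9:91278786-91279384 and -0.11 at chr8:11497283-11497965. For ERD minus STD it was -0.0014 at chr11:60691840-60692744. For BLD minus STD they were -0.10 at chr5:74931407-74932178, -0.14 at chr17:56263251-56264412, -0.45 at chr6:88034211-88035212, -0.36 at chr11:96147947-96148822, 0.20 at chr4:153534338-153535184, 0.19 at chr6:113432446-113433461 and 0.044 at chr11:69418599-69419438.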
